A study of Mus musculus with 2 samples.

Results

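Wild-type prostaspheres and prostaspheres in which Sox9 had been deleted, both treated with tamoxifen (TAM), were compared on 1 of the 2 arrays of the series, called the genotype array here. It was chosen by its 2 RNAs and not by any measured value. Prostaspheres are balls of epithelial cells that grow from single cells embedded in Matrigel. Wild-type spheres (C57/Bl6J, genotype label SOX9 wild type) gave the RNA labeled with Cy5. Spheres of ER-Sox9flox/flox mice, which carry floxed Sox9 alleles and a Cre recombinase that TAM activates, gave the RNA labeled with Cy3 (genotype label Sox9 null, same strain). The mouse line behind that Cre is named Rosa26ERCre, so Cre is made from the ubiquitous Rosa26 locus and is not restricted to epithelium. Per the labels, epithelium was taken from the urogenital sinus (UGS) of embryos at 16 dpc, grown for 6 days with dihydrotestosterone and then given 5 µM TAM for 6 days, whereas the methods describe the sphere assay with adult prostate. The number of animals behind each RNA is not given in the sources used here. The second array, the treatment array, set ER-Sox9flox/flox spheres given vehicle (Cy5) against ER-Sox9flox/flox spheres given TAM (Cy3). Its sample numbers differ from those of the genotype array, so the 4 RNAs are taken as 4 cultures.

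Sox9 is a transcription factor of the HMG-box family that is made in the budding prostate epithelium and is known for its roles in cartilage, testis, hair follicle and other progenitor cells. Prostate epithelium has a basal layer, which holds keratins 5 and 14 and p63 and is anchored to the basement membrane by hemidesmosomes, and a luminal layer with keratins 8 and 18. TAM-activated Cre removes the floxed Sox9 gene, so a gene whose RNA depends on Sox9 should differ between the RNAs of the genotype array. The RNAs on it also differ in mouse line, and a change that belongs to the line, to Cre or to the individual culture cannot be told apart from one that belongs to Sox9. On the treatment array the mouse line is the same in both RNAs and TAM exposure differs. On both arrays the RNA with Sox9 carried Cy5 and the deleted RNA carried Cy3. A dye effect on a probe would repeat on both arrays and cannot be told apart from a shared change. Every log2 ratio below is Cy5 over Cy3, which is wild type over Sox9-deleted on the genotype array and vehicle over TAM on the treatment array. The titles, genotypes and dyes of the labels set this direction. Source names in the labels put SOX9 on the Cy5 RNA and Ctrl on the Cy3 RNA. They were left aside, since taking SOX9 there to mean the deletion would reverse each sign.

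Of 41174 probes for 27729 genes on the genotype array, 23416 probes for 15504 genes were well above background in at least 1 of the RNAs and are called measured here. Of these genes, 14184 were well above background in both RNAs. Each gene is given by the brightest of its probes, and levels are normalized brightness, which cannot be compared between genes. There was 1 array, without a dye swap or a replicate, so no difference was tested, and sizes and counts describe these 2 RNAs. Spots of the same probe differed little, with a median SD of 0.0364 on the log2 scale over 170 probes with several spots, but this holds neither culture nor dye. Most genes had similar brightness in both RNAs: 92.7% lay within 0.5 on the log2 scale, and the 5th and 95th percentiles were -0.46 and 0.38. Genes at least 2-fold higher in wild-type RNA numbered 96, which is 0.619% of those measured. Genes at least 2-fold lower numbered 164, or 1.06%, so 1.68% passed 2-fold in either direction. At 4-fold, 14 genes were higher and 17 lower, and at 8-fold none was higher and 4 were lower. The dimmest of 3 equal groups of genes by brightness held 3 of the higher and 4 of the lower genes, since the constant added to each brightness shrinks the ratios of dim probes. With plain background subtraction, which also removes the constant, 344 genes were higher and 720 lower. On the scanner software's own log ratios, which differ in background correction and normalization together, 618 were higher and 1127 lower.

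**Figure D1:**
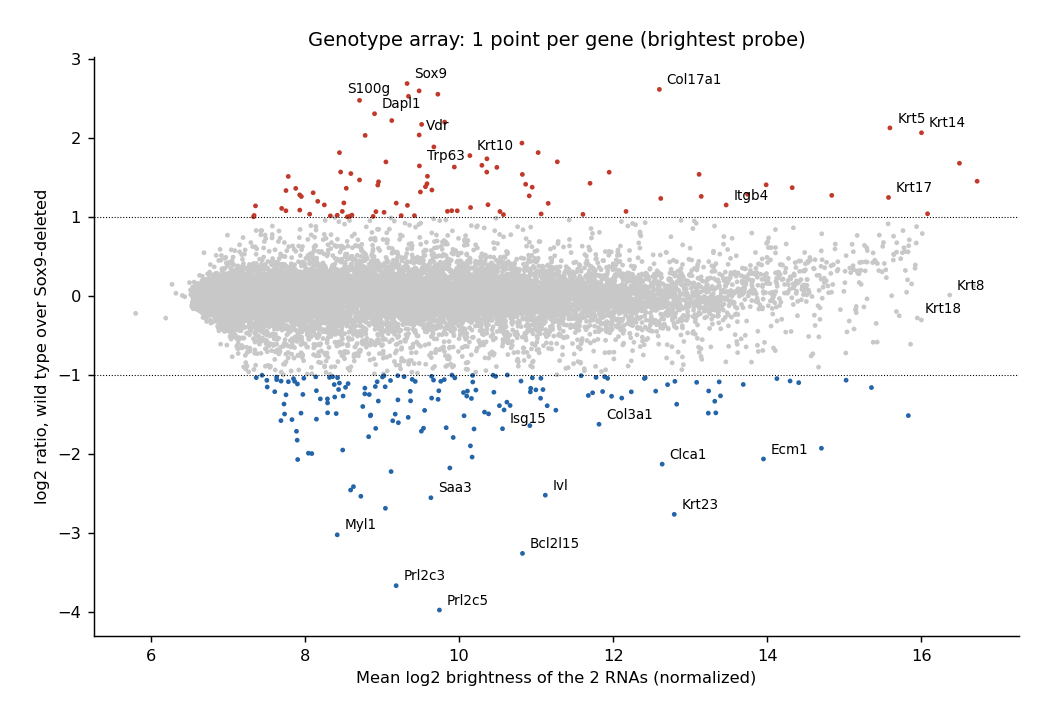
Log2 ratio of wild-type over Sox9-deleted RNA (vertical axis) against mean log2 normalized brightness of both RNAs (horizontal axis) for 15504 genes on the genotype array. The 96 genes at least 2-fold higher are red, the 164 at least 2-fold lower are blue, and dotted lines mark 2-fold.

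The deleted gene was checked first. Sox9 has 3 probes on chromosome 11, in mm9 coordinates of the array annotation. The brightest, at chr11:112647008-112647067, read 1634 in wild-type RNA and 253 in deleted RNA, a log2 ratio of 2.69 and the highest of any gene well above background in both RNAs. A second probe, at chr11:112644310-112645162 on the plus strand, spans an intron and reads coding sequence of the HMG box, the part of the protein that binds DNA. Its 60 bases are shown because this probe lies in a coding part of the message.
Sox9 coding probe: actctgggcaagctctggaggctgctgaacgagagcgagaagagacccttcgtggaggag
This probe read 297 and 131, a log2 ratio of 1.17. The third probe lies farthest downstream, at chr11:112648809-112648868, and went the other way. It read 106 in wild-type RNA, where it was not well above background, and 211 in deleted RNA, with an SD of 0.0352 over 8 spots. On the treatment array the same 3 probes gave 2.37, 1.27 and -1.22. Over all settings tried, the Sox9 ratio on the genotype array ran from 0.96, under 2-fold, to 3.58. Which part of Sox9 the floxed allele removes is not given in the sources used here, and a probe outside that part would not check the deletion. Of 95 measured genes within 5 Mb of Sox9, 2 were at least 2-fold higher and 1 was at least 2-fold lower, against 0.619% and 1.06% of all genes. The higher ones were 2610035D17Rik, at chr11:112905507-112905566, with 1.45 and 1.54 on the treatment array, and Itgb4, with 1.15 and 0.06. The lower one was Llgl2, with -0.99 on the treatment array. These genes were picked after their values were seen.

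The mouse lines could also be read from the array. Gt(ROSA)26Sor, the noncoding transcript of the Rosa26 locus that holds the Cre allele, read 244 in wild-type RNA and 111 in deleted RNA, where it was not well above background, which makes it at least 2.21-fold higher in wild type. On the treatment array it was not well above background in either ER-Sox9flox/flox RNA, at 91 and 94. Thus only the wild-type RNA was above background for it among the 4 RNAs. Xist, the noncoding RNA of the inactive X chromosome, was not well above background, and the Y-linked genes Ddx3y, Kdm5d and Eif2s3y had log2 ratios of 0.02, 0.13 and 0.16, so neither set the 2 RNAs apart by sex. Epithelial identity held in both RNAs, with Krt8 at 84796 and 84068 and Epcam, an epithelial adhesion molecule, at 5565 and 4049. Among prostate markers, Hoxb13, a homeobox factor of the caudal prostate and urethra, read 622 and 480. Pbsn, a secretory product of adult prostate, was not well above background in either RNA.

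Basal epithelial genes were higher in wild-type RNA. Of 14 listed basal genes, all measured, 7 were at least 2-fold higher and none was at least 2-fold lower, against 0.619% of all genes. Their median log2 ratio was 1.00, all 14 lay above 0 beside 47.9% of all genes, and the median stayed between 0.89 and 1.20 under the alternative settings. In bulk RNA, fewer cells of a type and less RNA per cell cannot be told apart. Col17a1, the transmembrane collagen of hemidesmosomes, read 15384 in wild type and 2505 in deleted RNA, with 10980 (vehicle) and 2682 (TAM) on the treatment array. Krt5, a keratin of basal cells, read 103234 and 23578, then 90328 and 23983. Krt14, its partner, read 134267 and 31997, then 110010 and 30374. In each of these genes both Sox9-expressing RNAs, labeled with Cy5, lay above both deleted RNAs, labeled with Cy3. The log2 ratios on the genotype array were 2.62, 2.13 and 2.07. Trp63, which encodes the p63 factor that basal cells need, read 1271 and 405, a log2 ratio of 1.65. Its other measured probe gave 0.52, while that of Col17a1 gave 1.73. Krt15, another basal keratin, stood at 1.04. Of 27 measured cytokeratins, 6 were at least 2-fold higher and only Krt23 was at least 2-fold lower.

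Luminal genes lay around 0. Of 9 measured luminal genes none passed 2-fold in either direction, and their median of -0.04 changed sign among the alternative settings. Krt8 and Krt18, the paired keratins of simple epithelium, had log2 ratios of 0.01 and -0.28, against -0.74 and -1.01 on the treatment array. In the suprabasal and cornified list, 3 of 19 were at least 2-fold higher and 2 at least 2-fold lower, around a median of 0.10 that also changed sign among settings. Krt10, a keratin of suprabasal skin layers, read 2093 and 610 (log2 ratio 1.78, other probe 2.07), Lor, a protein of the cornified envelope, stood at 1.41 and Krt6b, a keratin of stressed and proliferating epithelium, at 1.28. Against them, Ivl (involucrin), an early envelope precursor, read 928 and 5340, a log2 ratio of -2.52, and Sprr1a, a small proline-rich envelope protein, stood at -1.08. Stefins, which inhibit cysteine proteases, held 3 genes at least 2-fold higher of 8 measured, against 0.619% of all genes, namely Stfa1 (2.18), Cstdc5 (1.70) and Csta1 (1.57). The other probe of Csta1 gave only 0.29, and the list median of 0.49 lay between 0.20 and 1.74 under the alternative settings. Of 9 desmosome genes only Pkp1, a plaque protein of stratified epithelium, was at least 2-fold higher, at 1.54.

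**Figure D2:**
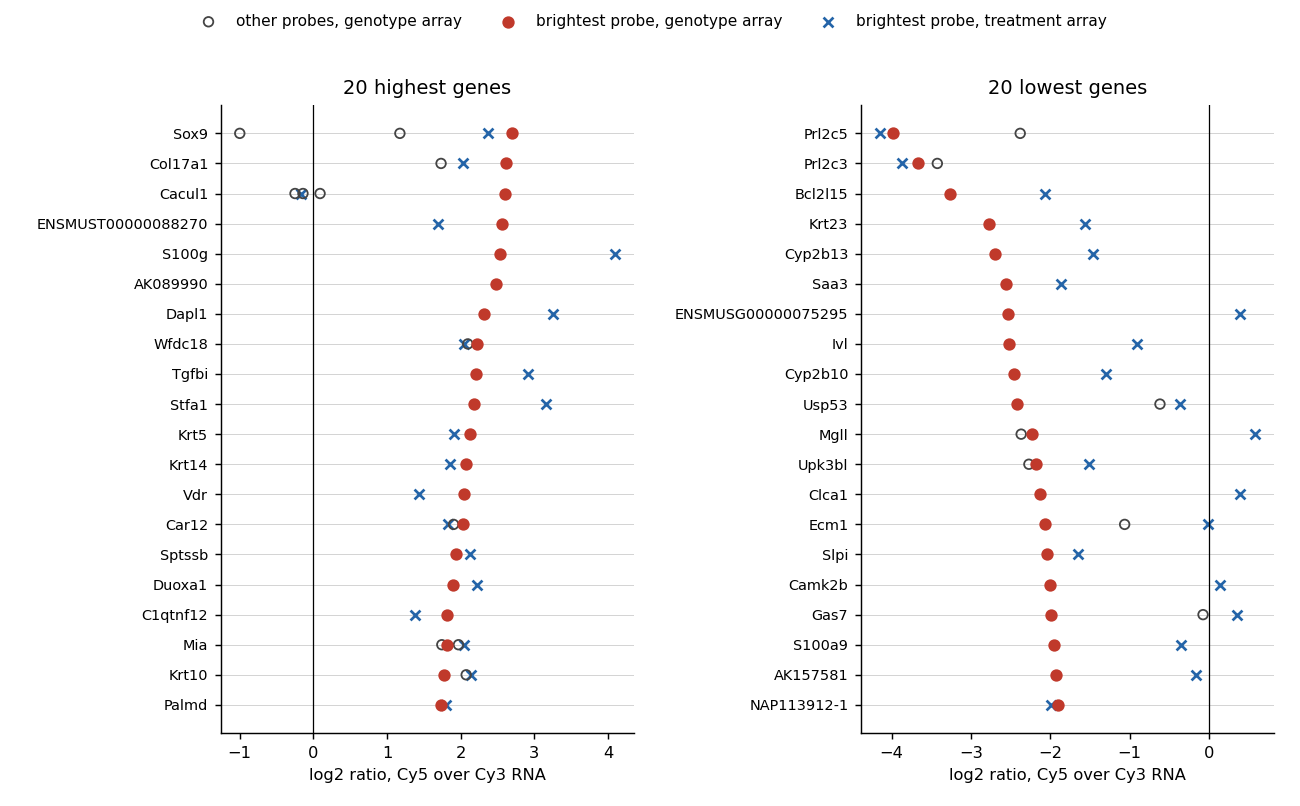
Log2 ratios (horizontal axis) of the 20 highest and 20 lowest genes well above background in both RNAs of the genotype array. Red points are the brightest probe and open circles the other measured probes of the gene on that array, and blue crosses are the brightest probe on the treatment array. Cacul1, Gas7 and Usp53 have other probes far from the red point, and several of the lowest genes have a blue cross near or above 0.

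Other genes among the 20 highest had varied roles. S100g, the calcium-binding protein calbindin-D9k, read 1564 and 271 (log2 ratio 2.53) on the genotype array and 4557 and 267 (4.09) on the treatment array. Vdr, the vitamin D receptor, read 1453 and 353 (2.04). Tgfbi, an adhesion protein of the matrix that TGF-beta induces, read 1933 and 419 (2.20). Wfdc18, a whey acidic protein family member named Expi on the array, stood at 2.22 with its other probe at 2.10. Mia, a small secreted protein that Sox9 controls in cartilage, had 3 probes between 1.74 and 1.97. Of 8 measured genes in the list of cartilage targets of Sox9, only Mia was at least 2-fold higher, against 0.619% of all genes. In that list 5 of 8 lay below 0, and the median was -0.01. Duoxa1, which matures the hydrogen peroxide-making oxidase Duox1, stood at 1.89, and Car12, a carbonic anhydrase, at 2.04. Each of these 7 genes was also at least 2-fold higher on the treatment array.

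The lowest genes in wild-type RNA were the proliferins. Prl2c5 read 216 in wild type and 3413 in deleted RNA, with 159 and 2817 on the treatment array. Prl2c3 read 163 and 2078, then 125 and 1819. These placental hormones of the prolactin family are near-identical copies, so their probes may read each other's RNA. Their log2 ratios were -3.98 and -3.67, with their other probes at -2.38 and -3.42. Bcl2l15, a Bcl2 family member of gut epithelium, read 585 and 5616 (-3.26), and no other of 14 measured members passed 2-fold. Krt23, a keratin of simple epithelium, read 2720 and 18516 (-2.77). Cytochromes of the xenobiotic list held 4 genes at least 2-fold lower of 7 measured: Cyp2b13 (-2.69), Cyp2b10 (-2.46), Cyp2b9 (-1.57) and Cyp3a13 (-1.28), against 1.06% of all genes. Another probe of Cyp2b9 gave only -0.21, and the list median of -1.28 came to -0.01 without the filter on dim probes. Cyp2b genes are close copies as well. Saa3, an acute-phase apolipoprotein (-2.56), and Slpi, a secreted protease inhibitor (-2.04), also led this end, and the claudin Cldn3, a tight junction strand protein, stood at -1.27. Apart from Cyp2b9, Cyp3a13 and Cldn3 these genes belong to the 20 lowest, and all of those named in this paragraph were at least 2-fold lower on the treatment array too. Of 16 measured tight junction genes, only Cldn3 was at least 2-fold lower, against 1.06% of all genes. In that list 5 of 16 lay above 0, and 1 was at least 2-fold higher at 1.18, against 0.619% of all genes.

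The higher and the lower genes of the genotype array stood differently on the treatment array. There, 1.65% of 15977 measured genes were at least 2-fold higher and 0.357% at least 2-fold lower, while 90.3% of genes measured on both arrays lay under 0.5 in size. Of the 96 higher genes, 57 (59.4%) were also at least 2-fold higher on the treatment array, 10 (10.4%) were under 0.5 in size there, 22 lay between and 7 were not measured. None was at least 2-fold the other way. Of the 164 lower genes, 24 (14.6%) were also at least 2-fold lower, 83 (50.6%) were under 0.5 in size, 39 lay between and 18 were at least 2-fold higher. The difference between the arrays could not be tested with 1 array each. Median centring instead of loess moved the median of all genes on the treatment array to 0.42, and the genes under 0.5 then numbered 53 in all instead of 93 and the opposed ones 28 instead of 18.

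**Figure D3:**
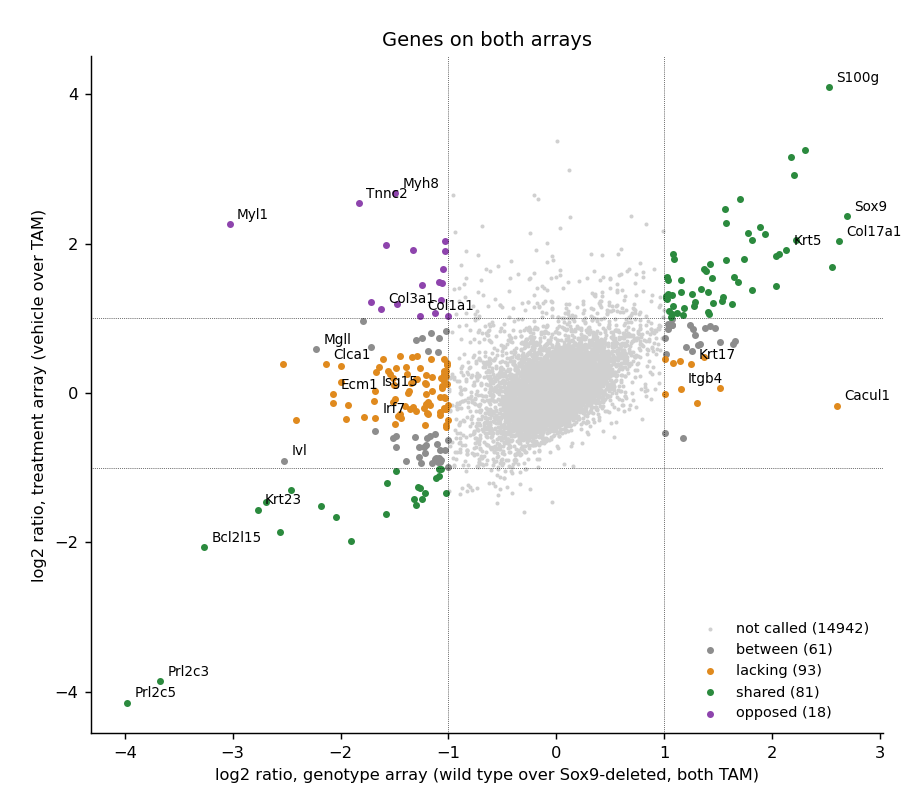
Log2 ratio on the treatment array (vertical axis) against that on the genotype array (horizontal axis), with dotted lines at 2-fold. Green genes passed 2-fold in the same direction on both (81), orange genes passed it on the genotype array and were under 0.5 in size on the treatment array (93), purple genes were opposed (18), dark grey genes lay between (61) and light grey genes were not 2-fold on the genotype array (14942).

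Read across the 4 RNAs, the genes that the treatment array lacks had wild-type RNA apart from the rest. The 83 lower genes had their lowest level in wild-type RNA in all 83 cases, against 25.8% of all measured genes, which the way they were chosen favors. Vehicle-treated ER-Sox9flox/flox RNA, which still had Sox9, lay above wild-type RNA by a median of 1.19 on the log2 scale. The median over all genes was -0.01, but the same choice of genes favors this difference too. Clca1, a secreted regulator of mucus and chloride channels named Clca3 on the array, read 3042 in wild type and 13324, 14217 and 10886 in the deleted, vehicle and TAM RNAs of ER-Sox9flox/flox spheres. Ecm1, a glycoprotein of skin matrix, read 7737 against 32386, 26407 and 26714. Isg15, the ubiquitin-like protein that interferon induces, read 846 against 2714, 2157 and 2118. In these 3 genes wild-type RNA was the lowest, while the closeness of the vehicle and TAM RNAs is what the genes were chosen for. Camk2b, a calmodulin kinase subunit (137 against 545, 612 and 554), S100a9, a neutrophil and epithelial alarmin subunit (-1.95), and AK157581, an unnamed transcript (-1.93), also had their lowest level in wild-type RNA.

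Interferon-stimulated genes were a listed group of this kind. All 22 listed genes were measured, 8 were at least 2-fold lower in wild-type RNA and none was higher, against 1.06% of all genes. The median was -0.56, between -1.22 and -0.50 under the alternative settings, and 21 of 22 lay below 0, beside 52.1% of all genes. On the treatment array the median was 0.19 and 18 of 22 lay above 0. Irf7, the interferon-induced factor that amplifies the response, read 271 in wild type and 867 in deleted RNA (-1.68), with 523 and 662 on the treatment array. Rtp4, an interferon-induced chaperone of receptors, read 1096 and 3422 (-1.64), then 3413 and 2692. Bst2 (tetherin), which holds budding virus on the cell, read 5761 and 16124 (-1.48), then 9720 and 14487. The others were Xaf1 (-1.37), the antiviral synthetase Oas1a (-1.33), its relative Oasl2 (-1.30), Ifit3 (-1.20), an antiviral RNA-binding protein, and Isg15 (-1.68). Of the 8, 7, all but Bst2, were under 0.5 in size on the treatment array. Genes outside the list that are known to respond to interferon, picked after their values were seen, were Ifit1bl1 (-1.78), Ifi27l2a (-1.49), Oasl1 (-1.40), Ifi204 (-1.21) and Zbp1 (-1.04). All 11 genes of MHC class I antigen presentation lay below 0 too, with a median of -0.42 and none past 2-fold. Psmb8, an immunoproteasome subunit, was farthest at -0.88, and B2m, the light chain, stood at -0.79. Of 12 listed leukocyte markers 6 were measured and none passed 2-fold. Their brightness summed to 2218 in wild type and 3695 in deleted RNA, mostly from Lyz2, a lysozyme of myeloid cells (1451 and 2708, -0.90). Their part in the interferon result was not tested.

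The promoters of these genes are shown because interferon acts through a short repeat in them. The 250 bases before the start of a gene, 5′ to 3′ on its own strand in RefSeq (GRCm38.p6), were searched for GAAANNGAAA or its other strand TTTCNNTTTC, where N is any base, and a gene counts once however many copies it holds. It stood in 7 (43.8%) of the 16 listed interferon genes with a promoter in the table, in 3.46% of all 27025 genes and in 3.06% of 10768 measured genes. Of the 7 listed genes at least 2-fold lower that have a promoter in the table, 4 held it. Among the 52 lower genes with a promoter that the treatment array lacks, 10 (19.2%) held it, and among 16 lower genes seen on both arrays, 1 (6.25%). A match is a run of letters and not a shown binding site. The 4 promoters follow with the matching letters in capitals, at chr4:156200819-156201068 on the minus strand, chr19:34583279-34583528 on the plus strand, chr8:71537473-71537722 on the minus strand and chr5:120907526-120907775 on the minus strand.
Isg15: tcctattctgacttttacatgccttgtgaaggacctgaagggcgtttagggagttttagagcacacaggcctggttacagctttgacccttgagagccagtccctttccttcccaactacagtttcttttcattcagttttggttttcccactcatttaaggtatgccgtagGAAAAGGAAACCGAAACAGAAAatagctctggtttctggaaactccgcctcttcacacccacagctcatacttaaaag
Ifit3: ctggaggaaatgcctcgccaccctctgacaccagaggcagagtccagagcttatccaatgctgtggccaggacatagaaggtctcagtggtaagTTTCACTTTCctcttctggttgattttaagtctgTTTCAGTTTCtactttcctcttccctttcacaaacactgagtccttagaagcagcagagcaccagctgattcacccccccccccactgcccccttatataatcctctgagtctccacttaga
Bst2: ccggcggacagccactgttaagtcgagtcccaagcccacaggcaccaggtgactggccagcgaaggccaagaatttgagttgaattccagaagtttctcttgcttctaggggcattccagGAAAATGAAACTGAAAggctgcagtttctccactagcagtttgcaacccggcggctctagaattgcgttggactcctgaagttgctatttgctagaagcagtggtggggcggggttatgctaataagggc
Oas1a: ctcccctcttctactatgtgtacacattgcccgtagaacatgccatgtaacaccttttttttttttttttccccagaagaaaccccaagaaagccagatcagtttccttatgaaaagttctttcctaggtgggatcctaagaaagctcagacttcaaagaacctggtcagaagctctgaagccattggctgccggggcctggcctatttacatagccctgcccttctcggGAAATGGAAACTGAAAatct
The core letters that HMG-box factors of the Sox family prefer, ACAATG or CATTGT on the other strand, were searched in the same windows. They stood in 12.2% of all genes, 7.66% of measured genes, 2 (3.45%) of 58 higher genes and 15 (13.6%) of 110 lower genes. Wfdc18 and Krt23, among the 20 highest and 20 lowest genes, held a copy each, at chr11:83708754-83709003 on the plus strand and chr11:99493121-99493370 on the minus strand, with the letters in capitals below. Krt5, Krt14 and Col17a1 held none in this window, which says nothing of sites elsewhere.
Wfdc18: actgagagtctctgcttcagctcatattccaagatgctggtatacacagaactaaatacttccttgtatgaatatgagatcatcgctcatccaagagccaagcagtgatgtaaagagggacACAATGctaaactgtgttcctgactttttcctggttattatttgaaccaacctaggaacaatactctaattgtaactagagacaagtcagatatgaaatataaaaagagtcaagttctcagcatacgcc
Krt23: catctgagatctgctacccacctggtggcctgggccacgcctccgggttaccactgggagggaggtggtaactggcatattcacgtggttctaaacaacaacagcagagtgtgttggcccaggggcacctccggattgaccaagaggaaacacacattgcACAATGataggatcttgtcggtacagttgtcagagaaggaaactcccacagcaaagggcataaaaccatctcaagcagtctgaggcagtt

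**Figure D4:**
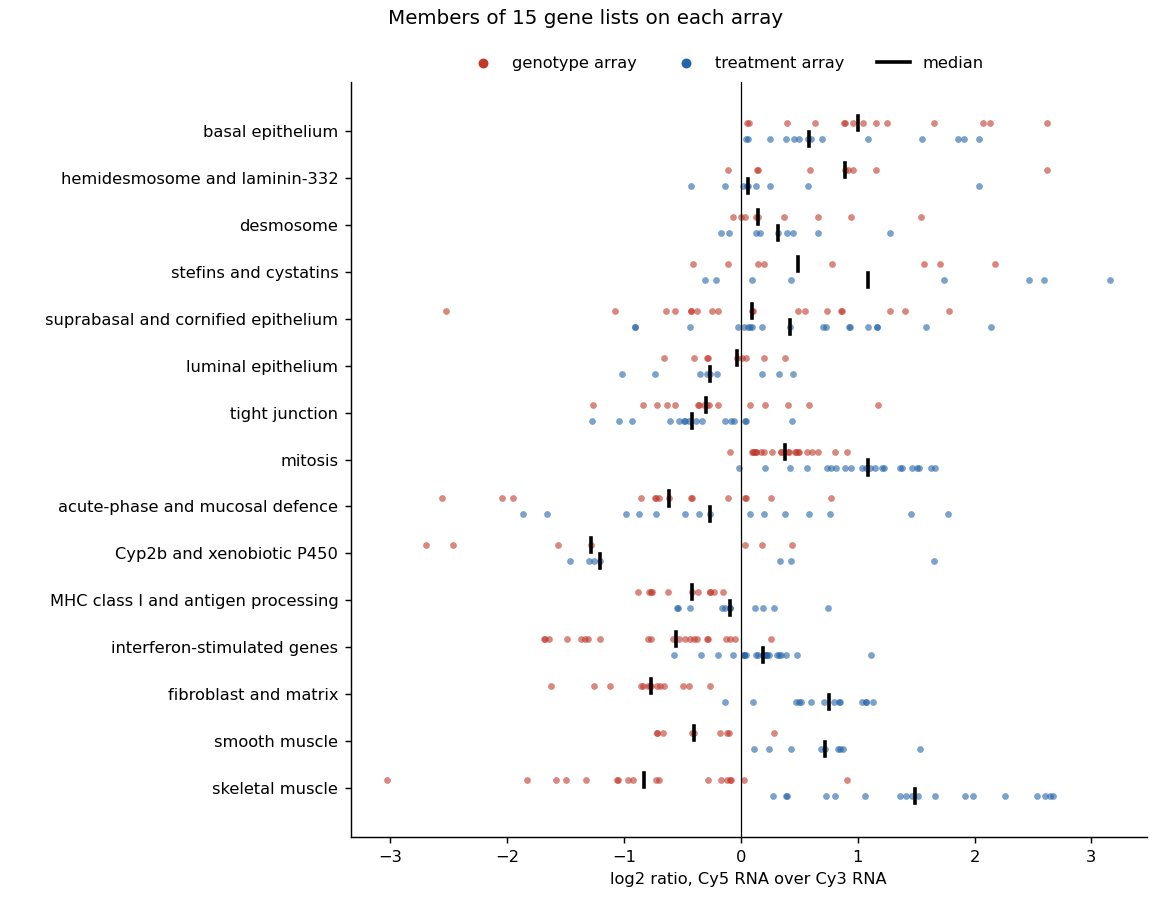
Log2 ratios (horizontal axis) of the measured members of 15 gene lists on the genotype array (red, wild type over Sox9-deleted) and the treatment array (blue, vehicle over TAM), with a black bar at each median. Basal genes lie above 0 on both arrays, interferon-stimulated genes have medians of -0.56 and 0.19, and fibroblast and skeletal muscle genes lie mostly below 0 on the genotype array and above 0 on the treatment array.

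Other gene clusters lower in wild-type RNA, picked after their values were seen, were the gasdermins and the Ly6 family. Gasdermins form pores in membranes, and the Gsdmc copies lie side by side on chromosome 15. Gsdmc3 read 512 in wild type and 1628 in deleted RNA (-1.67), with 1889 and 1555 on the treatment array. Gsdmc stood at -1.54, Gsdmc2 at -1.27 and Gsdme at -1.04, each under 0.5 in size on the treatment array, and 4 of 6 measured gasdermins were at least 2-fold lower, against 1.06% of all genes. Ly6 proteins are small surface proteins held by a lipid anchor, of which Ly6a (Sca-1) marks progenitor-rich prostate cells. Ly6a read 7288 and 15501 (-1.09), with -0.88 on the treatment array. Of 9 measured genes in the list of prostate progenitor markers, 2 were at least 2-fold lower, against 1.06% of all genes. In that list 4 of 9 lay above 0, up to 0.96, and the median was -0.01. Of 12 measured Ly6 genes 5 were at least 2-fold lower, against the same 1.06%, among them Ly6c1 (-1.58, and -1.62 on the treatment array). Close copies within both families may share probe signal.

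Genes higher in wild-type RNA that the treatment array lacks were fewer, 10 in all. Itgb4, the integrin that binds laminin at hemidesmosomes, read 16879 in wild type and 7588 in deleted RNA, with 9206 and 8847 on the treatment array. Its log2 ratios were 1.15 and 0.06, and its other measured probes gave 1.12 and 0.24 on the genotype array. Of 9 genes of the hemidesmosome and laminin-332 list, 2 were at least 2-fold higher, Itgb4 and Col17a1, against 0.619% of all genes. Col17a1 was also higher on the treatment array (2.03). This list shares genes with the basal list, Col17a1 among them, so the counts of the lists are not separate. The list median was 0.89, against 0.06 on the treatment array. Of laminin-332, the ligand of that integrin, Lama3 and Lamb3 had genotype ratios of 0.60 and 0.89, under 2-fold, beside 0.02 and 0.25. Wild-type RNA was the highest of the 4 RNAs for 8 of these 9 genes, against 27.4% of all measured genes. Krt17, a basal and stress keratin, read 75103 and 31600 (1.25), then 50350 and 38589 (0.38). Wnt11, a Wnt ligand, read 434 and 175 (1.31), then 187 and 206 (-0.14). Htra1, a secreted serine protease, stood at 1.37 and Mcam, an adhesion molecule, at 1.15, against 0.48 and 0.42. Under the alternative settings the genotype ratios of Itgb4, Krt17 and Mcam fell as low as 0.84, 0.95 and 0.98, under 2-fold.

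**Figure D5:**
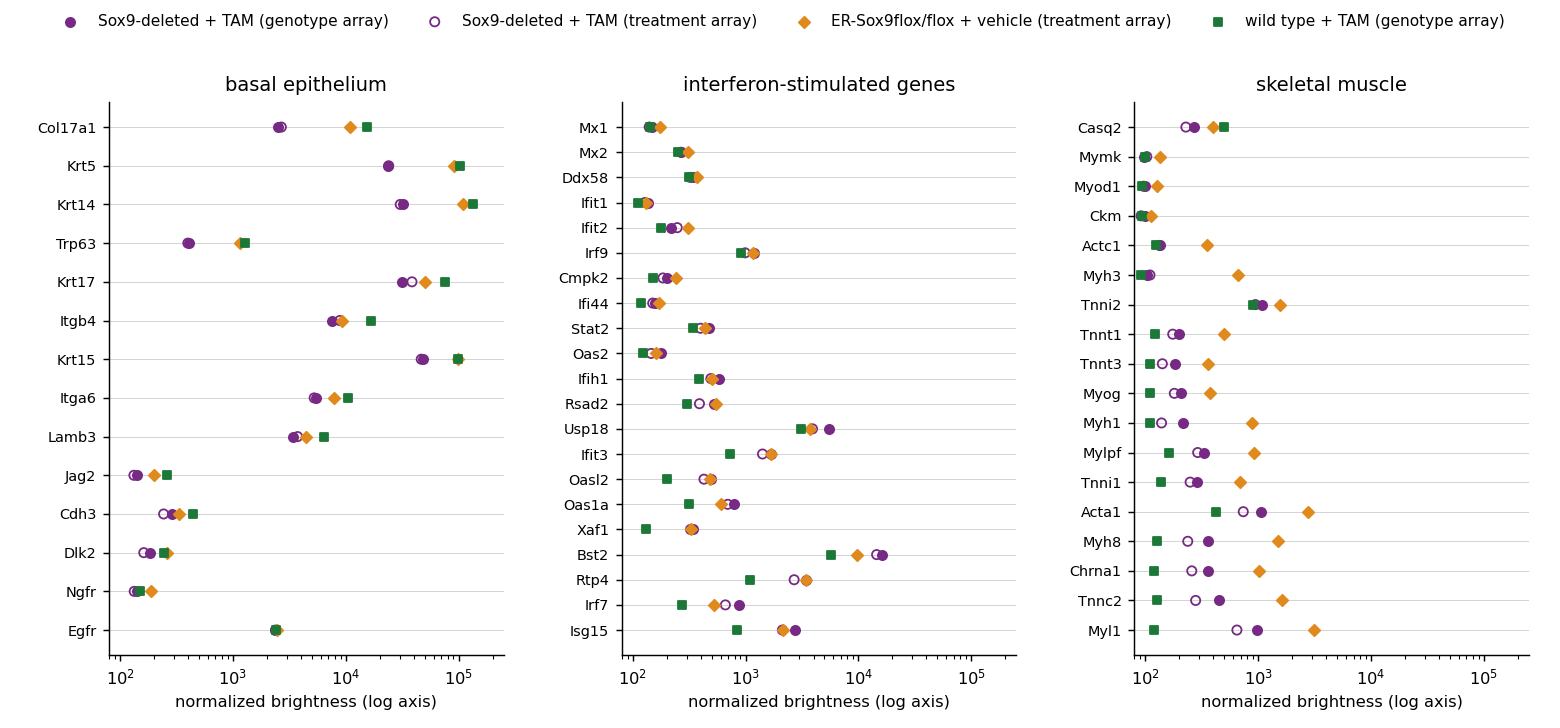
Normalized brightness (horizontal log axis) in the 4 RNAs for measured genes of 3 lists, with green squares for wild type and filled purple circles for Sox9-deleted RNA on the genotype array, and orange diamonds for vehicle and open purple circles for TAM on the treatment array. For the basal genes Krt5 and Krt14 squares and diamonds lie together above the circles. Over all 14 basal genes the diamonds lie below the squares by a median of 0.33 on the log2 scale. For most interferon-stimulated genes, such as Isg15, the square stands below the other 3. For most skeletal muscle genes, such as Myl1, the square is lowest and the diamond highest.

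Matrix and muscle genes were lower in wild-type RNA and higher in vehicle RNA. All 14 listed fibroblast and matrix genes lay below 0 on the genotype array, beside 52.1% of all genes, with a median of -0.77, and 13 of 14 lay above 0 on the treatment array, with a median of 0.75. Of these, 3 were at least 2-fold lower, against 1.06% of all genes: Col3a1 read 2054 in wild type and 6337 in deleted RNA, with 10884 and 4969 on the treatment array. Col1a1 read 2117 and 5073, then 8959 and 4378. Fbln2, a glycoprotein of elastic matrix, read 8949 and 19465, then 30234 and 14355. The means over all probes of Col3a1 (-0.96) and Col1a1 (-0.99) fell just under 2-fold. These genes of fibrillar collagen and matrix stood lowest in wild type, highest with vehicle and in the middle in both deleted RNAs. Skeletal muscle genes had 7 of 18 at least 2-fold lower, against 1.06% of all genes, with a median of -0.83. Their median on the treatment array was 1.49, where 13 of 18 were at least 2-fold higher, against 1.65% of all genes. Myl1, a myosin light chain, read 120 in wild type, not well above background, and 979 in deleted RNA, at least 8.15-fold lower in wild type, with 3094 and 647 on the treatment array. Its other measured probe had a log2 ratio of -0.69. Chrna1, the muscle acetylcholine receptor subunit, and Myh8, a perinatal myosin, were at least 2.99-fold and 2.82-fold lower in wild-type RNA, where they were not well above background. A second probe of Chrna1 gave only -0.13, and the mean of its probes was -0.86, under 2-fold. Tnnc2, a fast-fiber troponin, read 127 and 451 (-1.83), then 1619 and 279 (2.54). Of 9 smooth muscle genes 8 lay below 0, with a median of -0.40 and none past 2-fold. Summed within a list, where the brightest probes count most, the brightness of fibroblast genes was 54533 in wild type and 98909 in deleted RNA, and that of skeletal muscle genes was 3562 and 6506. These sums serve only to set the 2 RNAs against each other and give no share of cells. The part of such cells in the other results was not tested.

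Cell division genes leaned toward wild type without passing 2-fold. Of 22 measured mitosis genes 21 lay above 0, beside 47.9% of all genes, with a median of 0.37. None was at least 2-fold higher or lower, and Cdc20, an activator of the anaphase-promoting complex, was farthest at 0.91. On the treatment array 13 of 22 were at least 2-fold higher, against 1.65% of all genes, and the median was 1.09. Of the growth-induced factors, Myc stood at -0.18 and Fos read 167 in both RNAs. Ribosomal RNA stood higher too. Rn18s, the 18S ribosomal RNA, read 165209 in wild type and 51455 in deleted RNA (1.68, and 1.49 on the treatment array), although labeling started from oligo dT. Of 76 measured ribosomal protein genes 72 lay above 0, beside 47.9% of all genes, with a median of 0.35. None of them was at least 2-fold higher and 1, Rpl11, was at least 2-fold lower. The part of this RNA make-up in the other results was not tested.

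Other pathway lists held few genes past 2-fold. Proteases of the matrix had 3 of 14 at least 2-fold lower in wild-type RNA, against 1.06% of all genes. They were the collagenase Mmp13 (-1.68), the gelatinase Mmp2 (-1.45) and stromelysin Mmp3 (-1.08). Adamts1, a protease of proteoglycans, was higher at 1.03. In the glutathione and Nrf2 list, Gsto1, an omega glutathione transferase, read 34437 in wild type and 98473 in deleted RNA (-1.52), with -0.12 on the treatment array, Gsta1 stood at -1.25 and Gpx2, a glutathione peroxidase of epithelium, at 1.07. Wnt10a, a Wnt ligand of skin and its appendages, was at least 2-fold higher at 1.52. It was 1 of 20 listed and measured Wnt pathway genes, against 0.619% of all genes. Outside that list, and picked after their values were seen, Wnt11 and the receptors Fzd6 (1.16) and Lgr4 (1.42, lowest probe 0.34) were at least 2-fold higher too. Gas1, a co-receptor of Hedgehog ligands, read 314 and 149 (1.08), and Snai2, a zinc finger factor of basal cells and of epithelial-mesenchymal transition, read 3089 and 1062 (1.54). Pmaip1, a p53-induced death factor, stood at -1.21 and Aldh1a3, which makes retinoic acid, at -1.05. No gene passed 2-fold in either direction among 28 measured DNA replication genes, 21 of sterol synthesis, 18 of protein folding and amino acid stress, 13 of the Notch pathway, 11 of the EGF family or 12 housekeeping genes, the last between -0.24 and 0.67.

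Several probes of a gene served as a check within the array, although they share the RNA and are not replicates. Of 5693 genes with several measured probes, 63.2% had all probes on the same side of 0. Among the 85 of them whose brightest probe passed 2-fold, 78 (91.8%) did, and in 23 every probe passed 2-fold the same way. Most genes lie near 0, where the sign changes easily, so choosing these 85 genes by size favors the higher share. The other probes of these genes had a median of 0.64 in the direction of the brightest probe, 97 had its sign and 31 passed 2-fold with it. Of genes seen on both arrays 29 of 31 had all probes on the same side of 0, and of genes that the treatment array lacks 27 of 29 did. Their other probes had medians of 0.72 and 0.48 in the direction of the brightest. Mgll, a lipase of monoglycerides, was lower on both its probes (-2.22 and -2.37), and Upk3bl, a relative of uroplakin, on both of its (-2.18 and -2.27).

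Of the genes past 2-fold, 7 had probes on both sides of 0, Sox9 among them. Cacul1, a cullin-associated protein named 2700078E11Rik on the array, read 1763 in wild type against 291, 256 and 289 in the other RNAs on its brightest probe (2.60), but its other measured probes lay between -0.25 and 0.09. The gene 1810037I17Rik had probes past 2-fold in both directions, at -1.21 and 2.37, and neither passed on the treatment array. Rpl11, a ribosomal protein, gave -1.10 and 0.42, and the remaining genes were Lmo7, Mid1 and Mypop. Strong and weak probes of a gene were also seen among those the treatment array lacks: Usp53, a ubiquitin protease relative, at -2.42 and -0.62, Gas7, a growth arrest protein, at -1.99 and -0.07, and Ppfibp1, a liprin, from -1.69 to -0.09. For these genes the size on the brightest probe describes that probe and not the gene.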

How the data were processed

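The members and lists were chosen with earlier results of these data known. The authors hybridized 2 arrays of 1 slide, without swapped dyes, and read them with Agilent Feature Extraction 10.5.1.1 (build mm9 in the file headers). They deposited, per spot, the uncorrected mean intensity and local background intensity of each channel, the software's log10 ratio of its processed intensities, and a table of processed values whose scale the values show to be log2 (slope 3.12 on the log10 ratio of the genotype array). Its centring and steps are not given in the sources used here.

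From the mean intensities, background was corrected with normexp and an offset of 50, and loess was applied within each array (limma 3.58.1, R 4.3.3), with control spots (1639 of 45018) and outlier spots (126) given no weight and then left out. No spot was saturated. Spots of a probe were averaged, and the probe with the highest mean brightness on the 2 arrays stood for a gene. Levels in the 4 RNAs were made comparable by quantile normalization of the mean brightness (Aquantile). A probe was measured if it was well above background in at least 1 channel, 22184 probes in Cy5 and 22701 in Cy3. A level not well above background counts as a bound. Genes at an absolute log2 ratio of at least 1 were counted. On the treatment array each was then placed as shared (at least 1 the same way), lacking (under 0.5), opposed (at least 1 the other way) or between. Symbols were updated through RefSeq by accession (25097 probes), symbol (6333) or synonym (1640), and 8104 kept the array's name. Tables from Python 3.11.15 with pandas 2.3.3. The code was tested on simulated data.

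Genes named were Sox9, Krt5, Krt14, Col17a1, Myc, Fos, Trp63 and Krt18, the 20 highest and 20 lowest, list members past 2-fold or farthest from 0, up to 15 lacking genes per direction, opposed genes, genes with probes past 2-fold both ways and up to 10 genes per direction above background in 1 channel alone. Of these, a selection is described, some genes are not reported here, and names outside the rule are given as picked after their values were seen or as background checks. The alternatives were an offset of 10, plain or no background subtraction, median centring, the software's log ratio, the deposited log2 table, 2 other filters, the mean over all probes and outlier spots kept. The number of arrays limits the precision.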

Additional observations from a re-analysis of the deposited data

Results flagged for a closer look

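In 18 genes the RNA with Sox9 was at least 2-fold lower on the genotype array and at least 2-fold higher on the treatment array. The difference between the arrays was not tested, since each is 1 array. Muscle genes made up most of them, with log2 ratios on the genotype and the treatment array of Myl1 (-3.03 and 2.26), Tnnc2 (-1.83 and 2.54), Mb (-1.71 and 1.22), Chrna1 (-1.58 and 1.99), Myh8 (-1.50 and 2.67), Acta1 (-1.33 and 1.92), Eno3 (-1.09 and 1.48), Tcap (-1.07 and 1.24), Tnni1 (-1.06 and 1.47), Mylpf (-1.05 and 1.67), Myom2 (-1.03 and 1.90) and Atp2a1 (-1.03 and 2.03). Genes of matrix were Col3a1 (-1.63 and 1.13), Col1a1 (-1.26 and 1.03), Fbln2 (-1.12 and 1.07) and Fndc1 (-1.004 and 1.03). The others were Serpina3n (-1.48 and 1.19) and Dio3 (-1.25 and 1.45), a serpin of the acute phase and the deiodinase that inactivates thyroid hormone. In all 18 the wild-type RNA was the lowest and the vehicle-treated RNA the highest of the 4 RNAs, an order that the way they were chosen favors. With the mean over all probes, the genotype ratios of Col3a1 (-0.96), Col1a1 (-0.99), Fndc1 (-0.56), Atp2a1 (-0.71), Tnni1 (-0.89) and Chrna1 (-0.86) were under 2-fold. For Myl1, Chrna1 and Myh8 the wild-type level was not well above background, so their genotype ratios rest on a bound.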

How the results depend on the processing

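Each result was recomputed under 10 other settings. Higher genes numbered 344 with plain subtraction, 162 with no background subtraction, 618 on the scanner software's log ratios and 168 on the deposited table, in place of 96, and lower genes 720, 302, 1127 and 304, in place of 164. In the same order, genes that the treatment array lacks numbered 379, 154, 549 and 154 (93 as reported), shared genes 265, 127, 476 and 127 (81), opposed genes 79, 42, 112 and 43 (18), and genes with several probes on 1 side of 0 193, 124, 231 and 126 (78). With an offset of 10 the opposed genes numbered 28. Median centring gave 53 lacking and 28 opposed genes, and 47.2% of the genes past 2-fold were then higher, against 36.9%. All other counts stayed within 1.5 times, and the mean over all probes gives no count of probes that share a side. Between 81.2% and 100% of the 260 genes past 2-fold passed again, fewest with the mean over all probes. Of 765 values of named genes past 2-fold, 764 kept their sign and 748 stayed past 2-fold. 1810037I17Rik, whose probes oppose each other, came to 0.58 with the mean over all probes. The causes were not tested. Dim probes limit the ratios: a spot near background is pulled toward 0 by the offset. No paired analysis was possible because each comparison is 1 array with no replicate.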
